A study of Mus musculus with 32 samples.

Results

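Genes that are active in the fetal liver or in liver progenitor and bile duct cells were followed in regenerating mouse liver with and without Rps6. The genes were Afp, H19, Igf2, Cd24a, Spp1 and Krt19, and every probe set annotated to 1 of them and to no other gene was taken. This gave 7 of the 12488 probe sets on the array, from 4 of the 6 genes (8251 genes have such a probe set in all): Afp, Igf2 and Krt19 by a pair of probe sets each, and Cd24a by 1. H19 was represented by a single probe set that is also annotated to the microRNA gene Mir675, so its values are given separately and assigned to neither gene. Spp1, the gene of osteopontin, was not analysed here because no probe set carried its name in the annotation used.

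The livers were Cre plus, carrying the mx-cre transgene, or Cre minus, without it. All mice were male C57BL/6, 3 months old and homozygous for a floxed Rps6 allele, which the Cre minus controls therefore carried too. The Mx promoter that drives the recombinase responds to interferon, and polyinosinic-polycytidylic acid was injected to induce it. It is not restricted to hepatocytes, so the cells that lost Rps6 cannot be assigned to 1 type. The sources used here do not say whether Cre minus mice were injected. Part of the liver was removed (partial hepatectomy), and tissue was collected 0, 20, 30 or 40 h later. The Cre plus groups held 4, 4, 3 and 5 livers in order of time, and the Cre minus groups 4 each. The labels name no sham-operated livers, and they do not assign each liver to a separate mouse; all p-values describe the spread among these liver samples only. Livers are named below by group and by the replicate letter of the labels.

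Values are log2 expression from a 1-colour oligonucleotide array, and all differences are on that log2 scale. Array medians lay between 5.88 and 5.99, and the arrays' 30th percentiles between 4.67 and 4.80. The only probe set of Rps6, shared with the pseudogene Rps6-ps4, lay between 6.24 and 7.69 in the 16 Cre plus livers and between 10.99 and 11.82 in the 16 Cre minus livers. Every group had arrays in the batches named PHX2 and PHX3, with 1 PHX3 array among the Cre plus livers at 30 h and 1 PHX2 array among the Cre minus livers at 40 h. Livers Cre plus 40 h D, Cre minus 30 h C and Cre plus 30 h A correlated least with the rest of their groups, with mean r of 0.9425, 0.9446 and 0.9495 against up to 0.9907 elsewhere.

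Alpha-fetoprotein, encoded by Afp, is the main serum protein of the fetus and belongs to the albumin family. Its transcription in the liver is shut down after birth, and in mice the repressors Zhx2 and Zbtb20 take part in that. Igf2, a growth factor, and H19, a long noncoding RNA that is the precursor of miR-675, are neighbouring imprinted genes that share an enhancer and are also silenced in the mouse liver after birth. CD24 is a small membrane-anchored surface protein, and keratin 19 is an intermediate filament protein of bile duct cells; both mark ducts and liver progenitor cells. After partial hepatectomy the liver normally regrows by division of its mature hepatocytes, and progenitor cells are known to expand mainly when hepatocytes cannot divide.

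The upstream sequence of Afp is shown as background to the regulators of Afp described below, whose binding was not measured. It is the stretch of 250 bases before the annotated start on the plus strand, chr5:90490464-90490713 in RefSeq's GRCm38.p6, with HNF1 half-sites (GTTAA, searched on both strands) and a TATA box (TATAAA, both strands) in capitals.
Afp upstream: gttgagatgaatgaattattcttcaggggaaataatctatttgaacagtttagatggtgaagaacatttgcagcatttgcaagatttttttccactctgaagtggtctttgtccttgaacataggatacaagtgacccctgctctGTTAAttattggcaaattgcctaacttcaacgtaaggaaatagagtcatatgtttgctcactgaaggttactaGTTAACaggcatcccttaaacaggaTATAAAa
The half-site matched 3 times, with first bases at -105, -32 and -31 from the start, and the last 2 overlap on opposite strands. The TATA box sequence matched at -7 from the annotated start, and its use as a TATA box was not tested. A half-site was present in 21.7% and a TATA box in 12.4% of the 32851 upstream windows of the same length. A C/EBP site (TTGCNNCAA, both strands) was also searched for. It had 0 matches in the Afp window and was present in 1.7% of the windows. Sites of the other regulators named below were not searched for. Upstream sequences were in the table for 3 of the 6 genes, Afp, Igf2 and Spp1.

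The probe set shared by H19 and Mir675 is annotated to both genes. Mir675 gives a pair of mature microRNAs, shown here with the seed (bases 2 to 8) in capitals, from RefSeq's GRCm38.p6 on the minus strand of chromosome 7. They lie at chr7:142577112-142577133 (5p) and chr7:142577078-142577099 (3p), and their seeds differ.
mmu-miR-675-5p: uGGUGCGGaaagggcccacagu
mmu-miR-675-3p: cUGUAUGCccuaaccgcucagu

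Most of these probe sets lay low on the arrays. Krt19 102121_f_at was at background: it passed its own array's 30th percentile on 1 of 32 arrays, and was not tested. The other 6 were tested, which required that level on at least 3 arrays. Krt19 92550_at passed it on 9 arrays and Igf2 98622_at on 6, so both lay near background in most livers. None of the 8 livers at 0 h was among them for either probe set, so each entered the test only through livers taken after surgery.

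Both Afp probe sets passed the 30th percentile on all 32 arrays and the array median on none. They lay between the 35.0 and 42.7 percentile (101493_at) and between the 34.5 and 44.7 percentile (101494_at) of their arrays. Cd24a 100600_at ranged from the 35.3 to the 55.0 percentile and passed the array median on 5 arrays. Igf2 98623_g_at was the exception, between the 74.1 and 83.2 percentile and above the median on all 32 arrays. As a second measure of background, the 19 probe sets for bacterial and yeast transcripts had medians from 3.17 to 6.66, 18 of them at 4.65 or lower; the sources used here do not say whether any was spiked in.

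**Figure D1:**
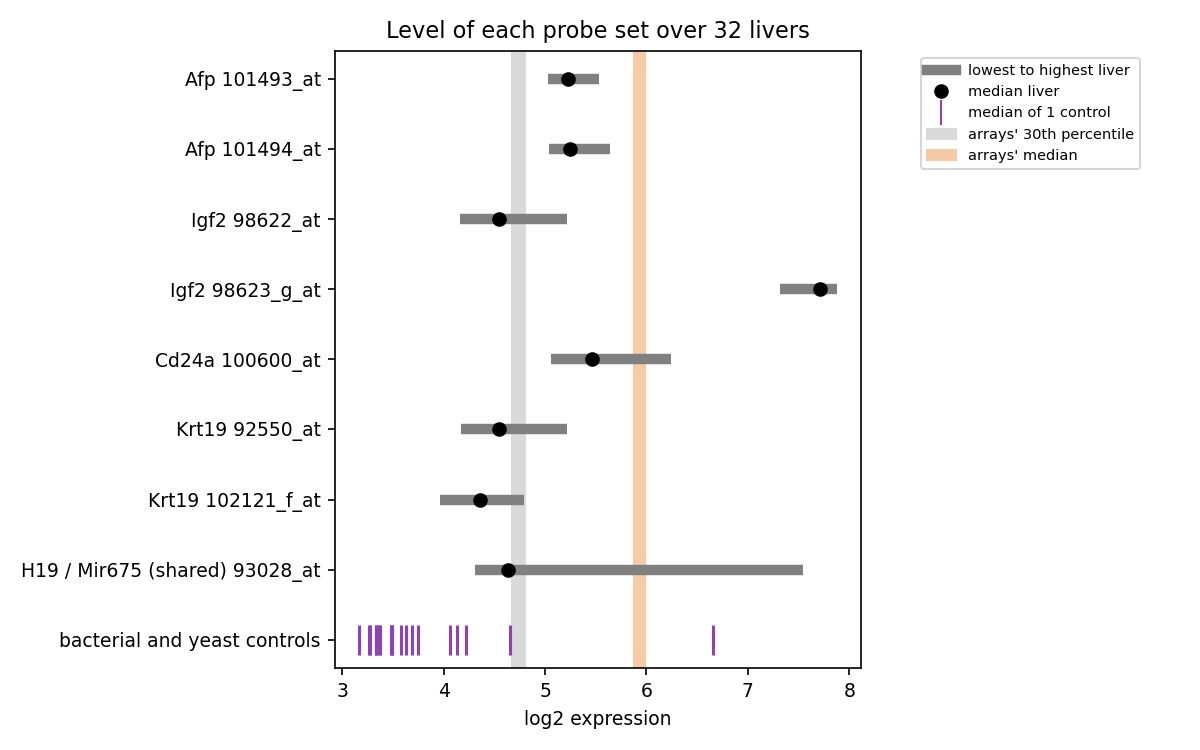
Log2 expression (x axis) of the 7 probe sets and the shared H19 and Mir675 probe set over 32 livers, as a bar from the lowest to the highest liver with a dot at the median; ticks give the median of each of the 19 control probe sets, and the bands span the arrays' 30th percentiles and medians. The median of Krt19 102121_f_at, 4.36, lies under the lower band, and Igf2 98623_g_at, with a median of 7.71, is the member whose bar lies wholly above the upper band.

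Across the 13 comparisons of the design (genotype at 4 times, 3 later times against 0 h in each genotype, and 3 interactions), 2 calls were made among the 6 tested members at an adjusted p under 0.05. Cd24a rose at 20 h in Cre minus livers, a comparison in which 7.37% of all 9249 tested probe sets were called. Krt19 92550_at rose at 40 h in Cre plus livers, where 9.66% were called. The median difference over the 6 members was 0.07 and 0.30 in these comparisons, and over all tested probe sets -0.03 and 0.01. No member was called between Cre plus and Cre minus livers at 0, 20, 30 or 40 h, where 0.0649, 0.292, 0.281 and 5.35% of probe sets were called. Nor was any called in the interaction of genotype and time, which sets the genotype difference at a later time against that at 0 h (0% of probe sets called for 20 h, with 132 probe sets at an unadjusted p under 0.05; 0.0108% called for 30 h and 0.584% for 40 h).

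**Figure D2:**
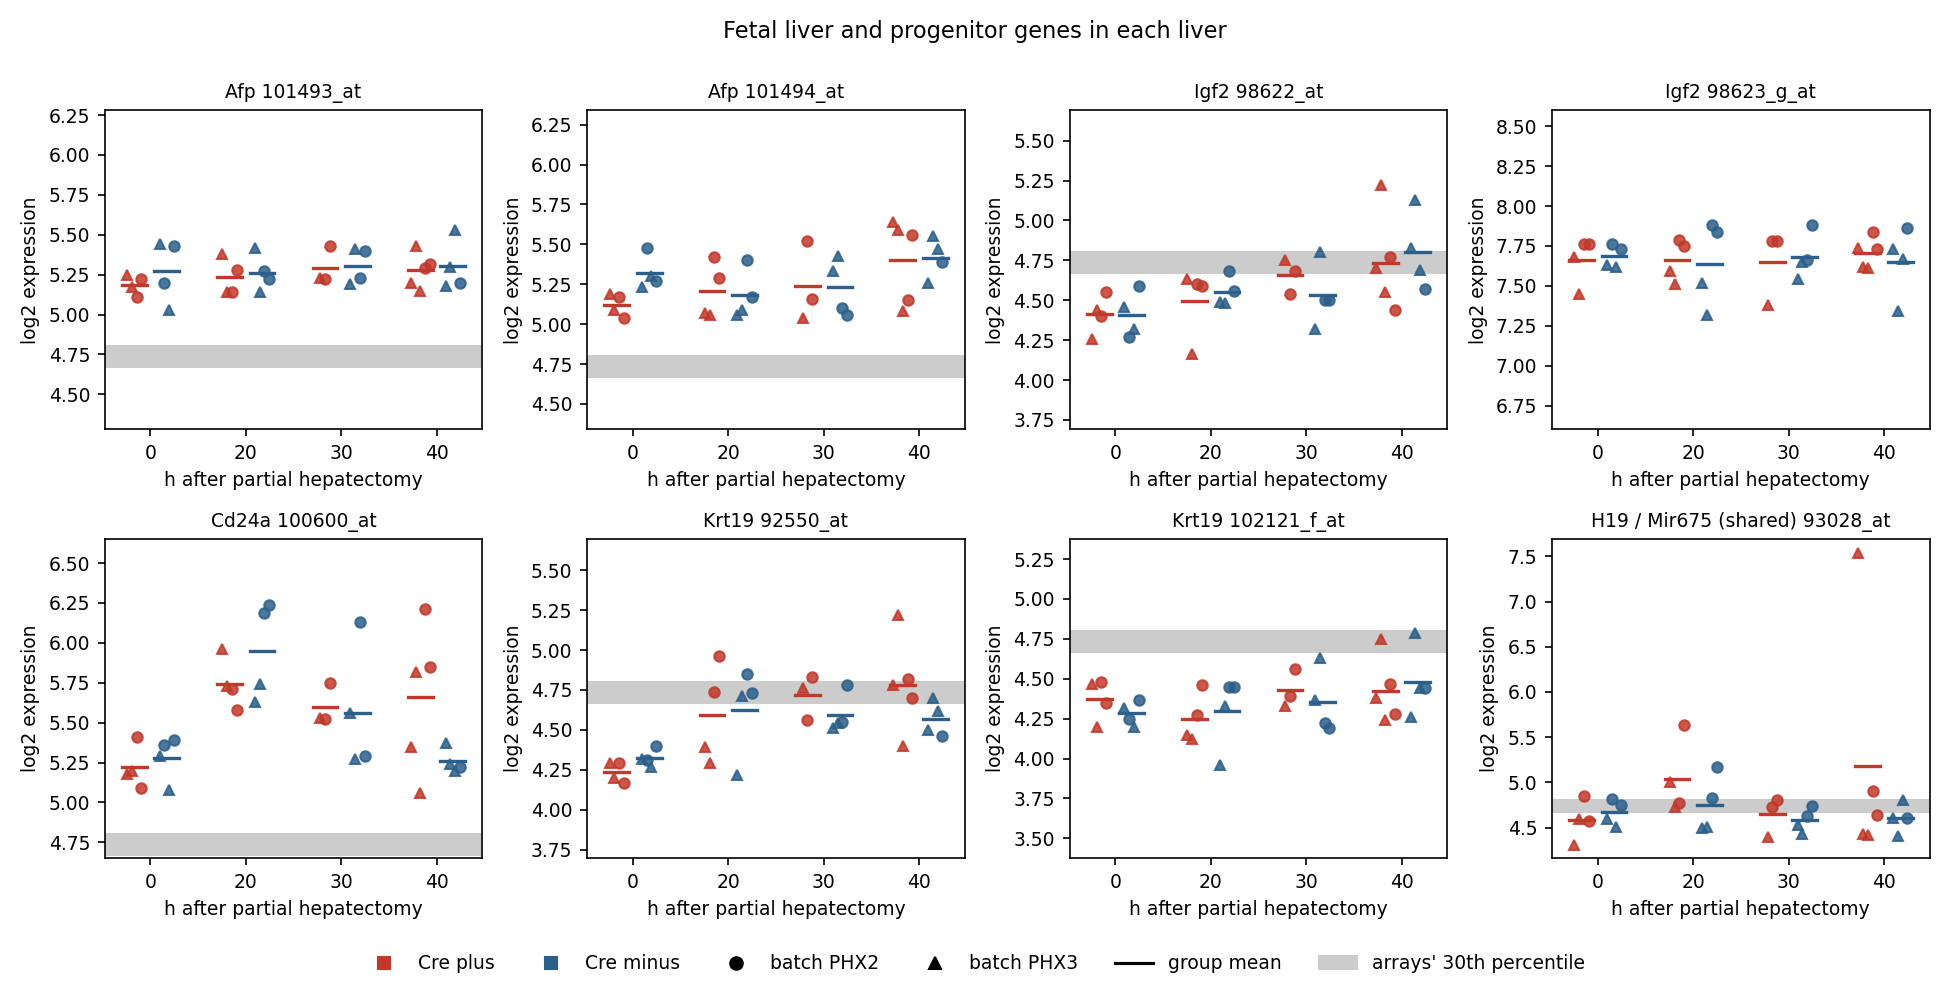
Log2 expression of each liver (y axes, each spanning at least 2 log2 units) at 0, 20, 30 and 40 h, Cre plus left of Cre minus, with circles for PHX2, triangles for PHX3, lines at group means and a band at the arrays' 30th percentiles. Cd24a lies higher at 20 h than at 0 h in both genotypes, and the group means of Krt19 92550_at are lowest at 0 h. Both Afp probe sets lie above the band in every liver, and the H19 and Mir675 probe set stands at 7.54 in 1 Cre plus liver at 40 h.

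Cd24a encodes the surface glycoprotein that marks progenitor and duct cells but also B cells, neutrophils and erythroid precursors. Its log2 values in Cre plus livers were 5.18, 5.20, 5.41 and 5.09 at 0 h and 5.96, 5.73, 5.71 and 5.58 at 20 h. Cre plus livers had 5.53, 5.52 and 5.75 at 30 h and 5.35, 5.82, 5.06, 6.21 and 5.85 at 40 h. In these livers the values at 20 h and 30 h lay above all those at 0 h, while at 40 h 3 livers were above and 2 were within or below the 0 h range.

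Cd24a in Cre minus livers had log2 values of 5.29, 5.36, 5.08 and 5.39 at 0 h and 5.63, 5.74, 6.19 and 6.24 at 20 h. Cre minus livers had 5.56, 5.27, 6.13 and 5.29 at 30 h and 5.37, 5.24, 5.20 and 5.22 at 40 h. All 4 livers at 20 h exceeded every liver at 0 h. How many of all probe sets keep groups apart in this way was not counted for any comparison. At 30 h liver C stood well above the other 3, and at 40 h the values were back within the 0 h range.

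Cd24a rose by 0.67 at 20 h in Cre minus livers against 0 h (SE 0.17, 95% interval 0.32 to 1.03, 1.59-fold, limma adjusted p = 0.0183, higher in 4 of 4 livers). Within PHX2 alone the difference was 0.84 (adjusted p = 0.127) and within PHX3 alone 0.50 (adjusted p = 0.195). Leaving out 1 liver ended the call for Cre minus 0 h C (adjusted p = 0.0532), Cre minus 20 h C (adjusted p = 0.0619) and Cre minus 20 h D (adjusted p = 0.0674). In bulk liver, fewer cells of a type and less RNA per cell cannot be told apart, and the same holds for more.

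The Cd24a difference at 20 h in Cre plus livers was 0.53 (SE 0.17, 95% interval 0.17 to 0.88, adjusted p = 0.0544), just outside the threshold in a comparison with 9.07% of probe sets called. It passed with the compared groups fitted alone (adjusted p = 0.0179), in PHX3 alone (0.66, adjusted p = 0.0491; PHX2 0.39), under a stricter filter (0.0459), without Cre plus 20 h C (0.045) or D (0.0286), and without the 3 least correlated arrays (0.017). The difference between the genotypes in this response was -0.14 (95% interval -0.65 to 0.36, adjusted p = 0.9996). So a 20 h response of Cd24a that differs between the genotypes was not detectable, and its interval covers differences in either direction.

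At 30 h the Cd24a difference from 0 h was 0.35 in Cre plus livers (adjusted p = 0.261) and 0.28 in Cre minus livers (adjusted p = 0.468); 9.89 and 3.14% of probe sets were called. At 40 h it was 0.46 in Cre plus livers (SE 0.16, adjusted p = 0.076) and 0.03 in Cre minus livers (adjusted p = 0.955), where 4.77% were called. Within PHX2 alone the Cre plus difference was 0.78 (adjusted p = 0.168) and within PHX3 alone 0.22 (adjusted p = 0.494). Leaving out 1 liver gave 0.35 to 0.59 and a call in 1 of 9 fits, the one without Cre plus 40 h C (0.59, adjusted p = 0.0165), and none of 11 other alternatives gave a call. Cre plus against Cre minus at 40 h gave 0.37 (95% interval 0.03 to 0.71, unadjusted p = 0.0342, adjusted p = 0.239), with 0.81 within PHX2, which held 1 Cre minus liver, and 0.14 within PHX3. The interaction at 40 h was 0.43 (95% interval -0.06 to 0.92, adjusted p = 0.93). At 20 h the genotype difference was -0.21 with both batches, -0.57 within PHX2 and 0.16 within PHX3.

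By group mean, Cd24a was highest in Cre minus livers at 20 h (5.95 ± 0.31, SD, n = 4), then in Cre plus livers at 20 h (5.74 ± 0.16, n = 4), 40 h (5.66 ± 0.45, n = 5) and 30 h (5.60 ± 0.13, n = 3). Cre minus livers at 30 h followed (5.56 ± 0.40, n = 4). Cre minus livers at 0 h (5.28 ± 0.14, n = 4) and 40 h (5.26 ± 0.07, n = 4) and Cre plus livers at 0 h (5.22 ± 0.14, n = 4) were lowest. No neighbours in this order differed by more than the larger of their SDs. The genes whose pattern over the 32 arrays, after removal of batch, correlated best with Cd24a were Ctsl (r = 0.90), a lysosomal protease, Rbpms (0.87), an RNA-binding protein, and Srgn (0.87), the proteoglycan serglycin of blood cell granules; the arrays share groups and hybridisation.

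Markers of the other CD24-bearing cells were compared at 20 h in Cre minus livers, where Cd24a was called. Of 10 tested neutrophil genes 2 rose, Lcn2 by 3.56 (SE 0.59, adjusted p = 0.000754) and S100a8 by 1.09 (SE 0.33, adjusted p = 0.0464). Lcn2, a siderophore-binding protein, is also made by hepatocytes in the acute phase; S100a8 encodes a subunit of neutrophil calprotectin. The other 8 were not called, and the median difference of the 10 was -0.04. Over the 10 genes, Lcn2 and S100a8 included, the mean log2 value per liver was 6.77 to 6.89 at 20 h against 6.16 to 6.48 at 0 h in Cre minus livers, with 3 more listed genes below the filter. The mean in Cre plus livers was 6.47 to 6.79 at 20 h against 6.18 to 6.47 at 0 h, and 1 of 10 rose, Lcn2 by 3.18 (SE 0.59, adjusted p = 0.00187). In Cre minus livers this mean was 6.71 to 6.90 at 40 h, when Cd24a was back within its 0 h range. In Cre plus livers the neutrophil mean was 6.66 to 6.90 at 40 h, when Cd24a averaged 5.66 against 5.22 at 0 h. This mean leans on Lcn2 and S100a8, since the median difference of the list in Cre minus livers at 20 h was -0.04. The part of neutrophils in the Cd24a values was not tested.

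Erythroid and B cell genes did not pass the test in that comparison: 0 of 11 erythroid and 0 of 9 B cell genes were called, with median differences of -0.02 and -0.09. The erythroid mean was 6.79 to 7.42 at 20 h against 6.82 to 7.17 at 0 h in Cre minus livers, and 6.39 to 6.84 against 6.73 to 6.90 in Cre plus livers. The B cell mean was 6.27 to 6.48 at 20 h against 6.30 to 6.39 at 0 h in Cre minus livers. Of 15 Kupffer cell and macrophage genes 1 fell, Mpeg1, which encodes a pore-forming protein, by 0.83 (SE 0.25, adjusted p = 0.0375), and their mean was 7.95 to 8.16 at 20 h against 7.91 to 8.20 at 0 h. In Cre plus livers at 20 h 7 of these 15 fell and Cd14, the lipopolysaccharide co-receptor, rose by 2.14 (SE 0.58, adjusted p = 0.0203).

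Of the ligands and partners of CD24, 4 of 10 listed genes could be tested. In Cre minus livers at 20 h the tetraspanins Cd63 and Cd9 rose, Cd63 by 1.37 (adjusted p = 0.0196) and Cd9 by 0.72 (adjusted p = 0.0137). Cd63 averaged 6.97 ± 0.49 at 20 h against 5.59 ± 0.16 at 0 h in Cre minus livers (SD, n = 4 each). Cd63 rose in Cre plus livers too, by 1.22 at 20 h (adjusted p = 0.0314) and 1.12 at 40 h (adjusted p = 0.0366). Cd9 and Cd63 are widely expressed on leukocytes and other cells.

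Keratin 19 is made by bile duct and progenitor cells and is normally missing from mature hepatocytes. Krt19 92550_at had log2 values of 4.29, 4.20, 4.29 and 4.17 at 0 h in Cre plus livers, and 4.39, 4.29, 4.74 and 4.96 at 20 h. Cre plus livers had 4.76, 4.56 and 4.83 at 30 h and 4.78, 5.22, 4.40, 4.82 and 4.70 at 40 h. All values at 30 h and 40 h lay above every Cre plus liver at 0 h; at 20 h liver B did not.

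Krt19 92550_at in Cre minus livers had 4.32, 4.31, 4.27 and 4.40 at 0 h and 4.22, 4.71, 4.85 and 4.73 at 20 h. Cre minus livers had 4.51, 4.54, 4.55 and 4.78 at 30 h and 4.50, 4.70, 4.62 and 4.46 at 40 h. Liver A at 20 h was the lowest of all Cre minus livers, whereas the values at 30 h and 40 h all exceeded those at 0 h.

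Krt19 92550_at rose by 0.56 at 40 h against 0 h in Cre plus livers (SE 0.13, 95% interval 0.28 to 0.83, 1.47-fold, limma adjusted p = 0.0085, higher in 5 of 5 livers). The difference was 0.53 within PHX2 (adjusted p = 0.122) and 0.55 within PHX3 (adjusted p = 0.132), and 0.54 with the compared groups fitted alone (adjusted p = 0.0858). It passed in all 9 fits that left out 1 liver, at adjusted p up to 0.0345. This probe set entered the test only through livers taken after surgery, 3 of them in the Cre plus group at 40 h. The stricter filter left it untested. The second Krt19 probe set, 102121_f_at, which lay at background, differed by 0.06 in the same comparison (95% interval -0.19 to 0.30), and its differences over the 13 comparisons ran from -0.15 to 0.21. The second probe set therefore did not repeat this rise. At 0 h in Cre plus livers both lay low, with means of 4.24 (92550_at) and 4.37 (102121_f_at). Why they differed at 40 h was not tested. Over the 3173 probe sets that failed the filter the median difference in this comparison was 0.008. Probe sets that rose past the filter after surgery are not among them, so this median does not bear on the Krt19 rise. In the same comparison 8 of 15 Kupffer cell and macrophage genes fell, with means of 6.95 to 7.44 at 40 h against 7.47 to 7.91 at 0 h in Cre plus livers, and 0 of 13 stellate cell and fibroblast genes were called; their part in the Krt19 difference was not tested.

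At 30 h the Krt19 92550_at difference in Cre plus livers was 0.46 (SE 0.15, adjusted p = 0.0508), which passed when arrays were centred on their medians (0.0329), quantile normalised (0.0374) or fitted in the compared groups alone (0.0177). At 20 h it was 0.35 (adjusted p = 0.113). The differences from 0 h in Cre minus livers were 0.30, 0.27 and 0.28 (adjusted p = 0.206, 0.339 and 0.33). Cre plus against Cre minus gave -0.09, -0.03, 0.10 and 0.20 at 0, 20, 30 and 40 h, and the interaction at 40 h was 0.28 (95% interval -0.11 to 0.68, adjusted p = 0.999). A difference between the genotypes in Krt19 was thus not detectable with these arrays.

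The group means of Krt19 92550_at were highest in Cre plus livers at 40 h (4.78 ± 0.30, SD, n = 5) and 30 h (4.72 ± 0.14, n = 3). They were lowest at 0 h, with 4.24 ± 0.06 in Cre plus livers and 4.32 ± 0.05 in Cre minus livers (n = 4 each). The 6 groups after surgery followed each other by less than the larger SD. The step between the lowest of them, Cre minus at 40 h (4.57 ± 0.11, n = 4), and Cre minus at 0 h exceeded it, as did the smaller step between the genotypes at 0 h. Its closest patterns over the 32 arrays were those of Eif5a (r = 0.81), a translation factor, Myom1 (0.81), a sarcomere protein, and Dda1 (0.76), a subunit of a ubiquitin ligase.

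**Figure D3:**
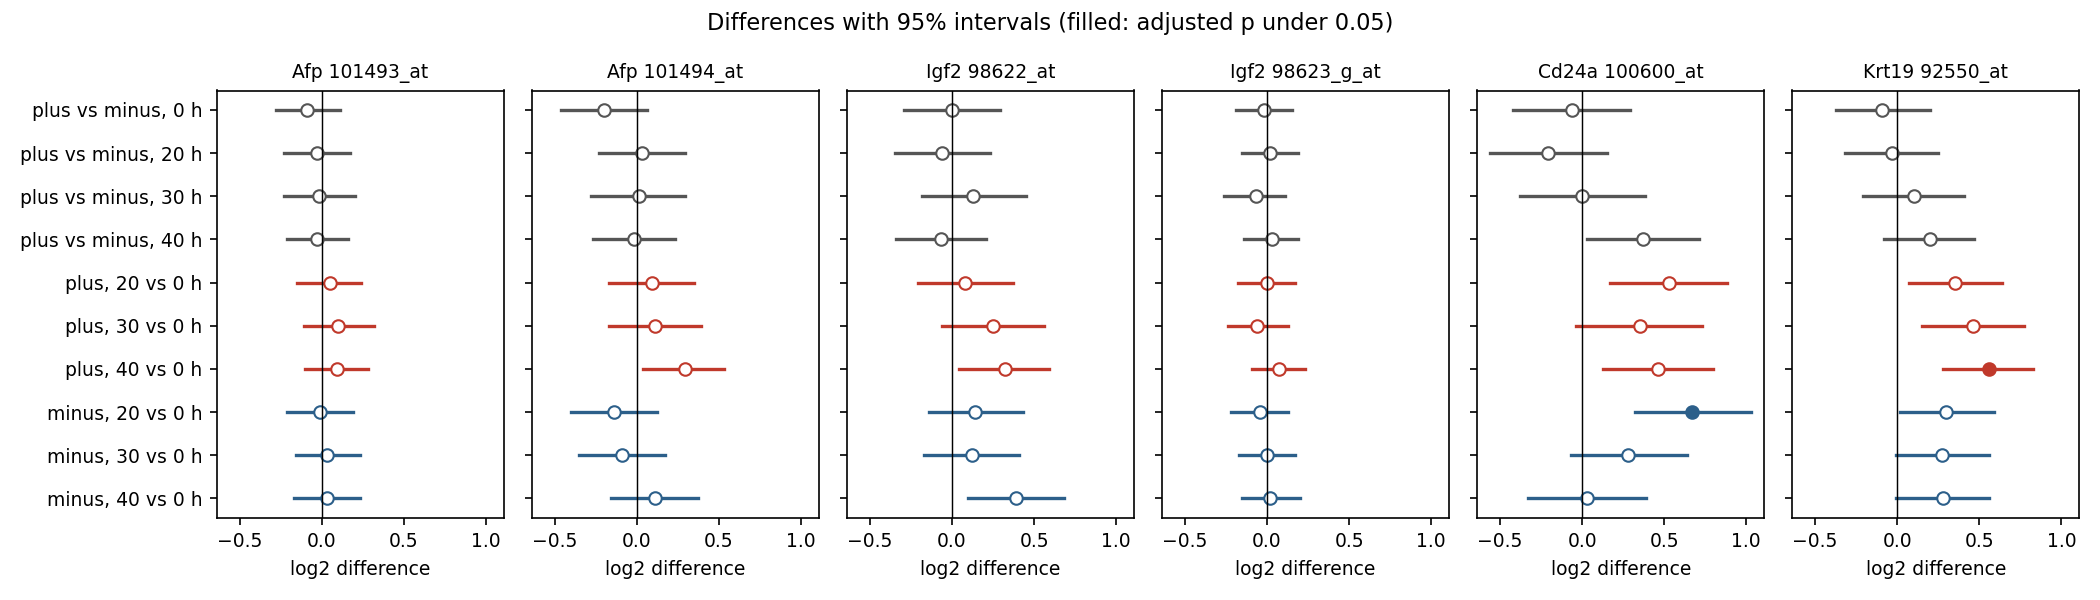
Log2 differences (x axes) of the 6 tested probe sets with 95% intervals, for the genotypes at each time (Cre plus minus Cre minus) and for 20, 30 and 40 h against 0 h in each genotype; filled dots have an adjusted p under 0.05. The filled dots are Cd24a in Cre minus livers at 20 h (0.67) and Krt19 92550_at in Cre plus livers at 40 h (0.56), and the intervals of Afp 101493_at and Igf2 98623_g_at all include 0.

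Other cholangiocyte and progenitor markers were read against these results: 18 of 30 listed genes were tested, and 5 more had a probe set that failed the filter. Of these 3 rose in Cre minus livers at 20 h and none fell, with a median difference of 0.06. They were Krt8 by 1.44 (SE 0.33, adjusted p = 0.00874) and Krt18 by 1.18 (SE 0.37, adjusted p = 0.0466), the keratin pair that hepatocytes also make, and the annexin Anxa3 by 0.54 (SE 0.16, adjusted p = 0.0414). Krt8 was the 1 marker that rose in Cre plus livers at 20 h (1.07, adjusted p = 0.0379), and likewise at 40 h (1.16, SE 0.31, adjusted p = 0.0186). Among Cre plus livers at 30 h 3 rose, Krt8 by 1.43 (adjusted p = 0.0118), the sodium pump subunit Atp1b1 by 0.89 (adjusted p = 0.0069) and the annexin Anxa5 by 0.68 (adjusted p = 0.0492). None of the 18 was called between the genotypes at any time.

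As to level, Krt8 averaged 10.73 ± 0.44 at 40 h (n = 5) against 9.57 ± 0.17 at 0 h (n = 4) in Cre plus livers, and 11.07 ± 0.80 at 20 h against 9.63 ± 0.16 at 0 h in Cre minus livers (SD, n = 4 each). Krt18 averaged 10.44 ± 0.65 at 20 h against 9.25 ± 0.05 at 0 h in Cre minus livers. Its difference in Cre plus livers at 40 h was 0.96 (adjusted p = 0.0831). The mean log2 value over the 18 markers was 7.01 to 7.12 in Cre plus livers at 40 h against 6.80 to 6.85 at 0 h. It was 6.83 to 7.14 in Cre minus livers at 20 h against 6.81 to 6.95 at 0 h. These ranges are from unlike times and do not compare the genotypes. At 20 h the mean was 6.85 to 7.15 in Cre plus livers, and at 40 h it was 6.92 to 6.96 in Cre minus livers. All of these levels include Krt8 and Krt18.

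**Figure D4:**
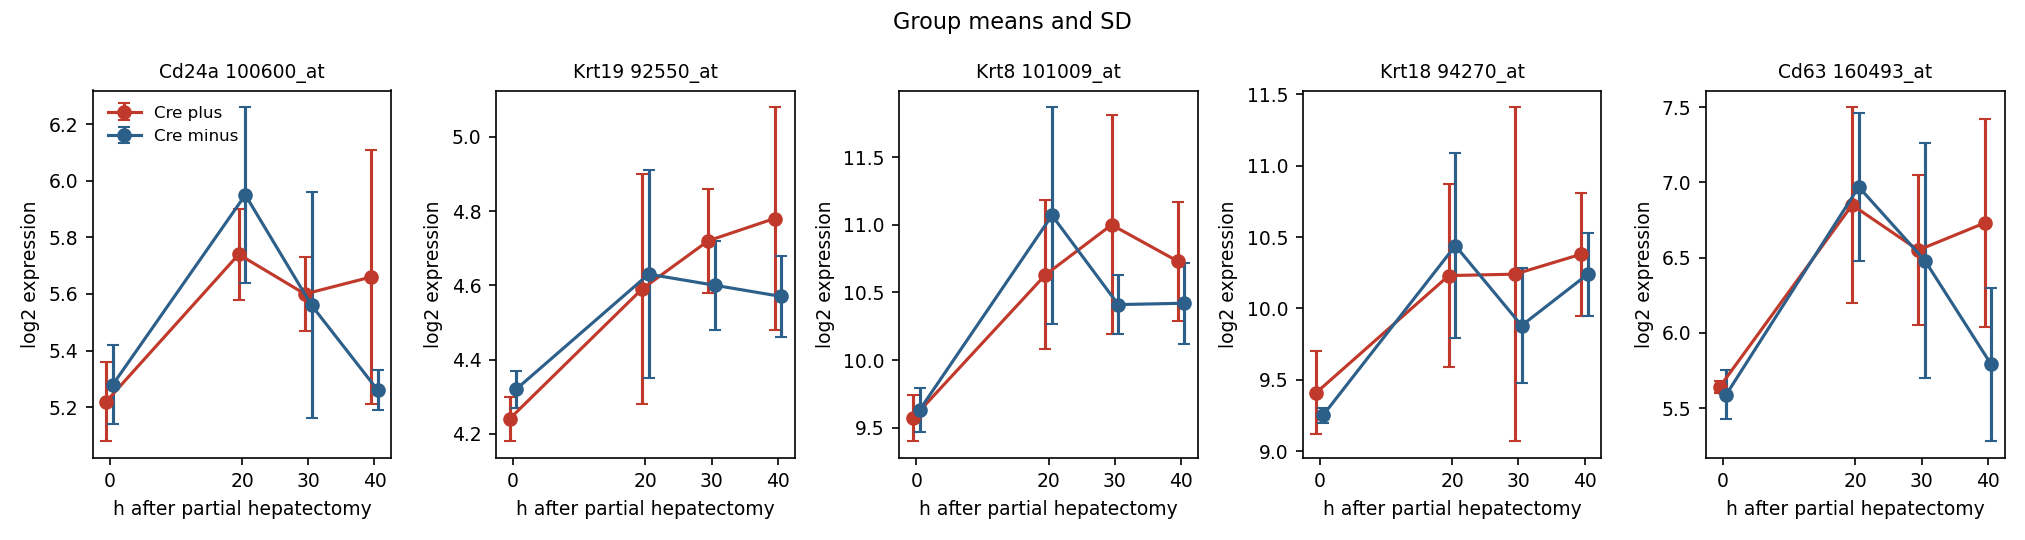
Group means with SD of log2 expression (y axes, not starting at 0) at 0, 20, 30 and 40 h after surgery for Cd24a, Krt19 92550_at, Krt8, Krt18 and Cd63, with 3 to 5 livers a group. Means at 20 h lie above those at 0 h for all 5 genes in both genotypes; the mean of Cd24a at 40 h is 5.66 for Cre plus and 5.26 for Cre minus, and that of Cd63 is 6.73 and 5.79.

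Without array weights, Afp showed no called difference with either probe set. Afp 101493_at had log2 values of 5.20, 5.43, 5.15, 5.29 and 5.32 in Cre plus livers at 40 h, against 5.25, 5.17, 5.11 and 5.22 at 0 h. Cre minus livers had 5.18, 5.30, 5.53 and 5.20 at 40 h, against 5.44, 5.20, 5.03 and 5.43 at 0 h. The groups overlapped in both genotypes. Its differences over all 13 comparisons lay between -0.09 and 0.10, and the widest bound of their 95% intervals was 0.36, or 1.28-fold. Both Afp probe sets stayed under the array median in every liver. These bounds describe a low signal that was not shown to come from Afp transcript.

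The second Afp probe set, 101494_at, had log2 values of 5.64, 5.59, 5.08, 5.15 and 5.56 in Cre plus livers at 40 h, against 5.19, 5.09, 5.17 and 5.04 at 0 h. Cre minus livers had 5.26, 5.55, 5.47 and 5.39 at 40 h, against 5.23, 5.48, 5.30 and 5.27 at 0 h. In Cre plus livers 3 of 5 values at 40 h stood clear of the 0 h range and 2 did not; in Cre minus livers the times overlapped. The Cre plus difference at 40 h was 0.29 (SE 0.12, 95% interval 0.04 to 0.53, unadjusted p = 0.0255, adjusted p = 0.142), and the 101493_at difference beside it was 0.09. At 0 h this probe set read 5.04 to 5.19 in Cre plus livers and 5.23 to 5.48 in Cre minus livers. The difference was -0.20 (limma unadjusted p = 0.13, adjusted p = 0.9999), in a comparison where 140 of 9249 probe sets had an unadjusted p under 0.05. How many of all probe sets keep these groups apart was not counted, and 101493_at gave -0.09 with overlapping groups.

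For neither Afp probe set did neighbouring groups in the order of means differ by more than the larger SD; the lowest mean was that of Cre plus livers at 0 h for both (5.19 ± 0.06 and 5.12 ± 0.07, n = 4). Closest in pattern to 101493_at were Nefm (r = 0.60), a neurofilament, Gnb3 (0.60), a G protein subunit, and Gkap1 (0.59). Closest to 101494_at were Eya2 (0.71), a transcriptional coactivator, Rap2b (0.70), a small GTPase, and Prpmp5 (0.67). Each of these correlations is over 32 arrays with batch removed.

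Regulators of Afp transcription, by contrast, included called genes after surgery in both genotypes; 13 of 18 listed genes were tested. In Cre plus livers 1 rose and 3 fell at 20 h, and 2 rose and 5 fell at 30 h, with median differences of -0.25 and -0.69. In Cre minus livers 1 rose and 1 fell at 30 h, and 1 rose and 0 fell at 40 h, with median differences of -0.24 and -0.31. At 40 h in Cre plus livers 1 rose and 3 fell, with a median difference of -0.51 against 0.01 over all probe sets. Cebpb, a C/EBP factor of the acute phase and of regeneration, rose by 1.34 (SE 0.19, adjusted p = 0.000129). Cebpa, the C/EBP factor of resting hepatocytes, fell by 1.01 (SE 0.28, adjusted p = 0.0214), the nuclear factor Nfib fell by 0.89 (adjusted p = 0.0284) and the Afp repressor Zbtb20 fell by 0.78 (adjusted p = 0.0325).

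At 20 h in Cre minus livers, 2 of the 13 regulators rose and 1 fell. Cebpb rose by 1.20 (SE 0.20, adjusted p = 0.000938), the pioneer factor Foxa1 rose by 0.66 (SE 0.17, adjusted p = 0.0176) and Cebpa fell by 1.27 (SE 0.29, adjusted p = 0.00972). Cebpa averaged 10.15 ± 0.52 at 20 h against 11.42 ± 0.24 at 0 h in Cre minus livers, and 10.12 ± 0.30 against 11.38 ± 0.14 in Cre plus livers (SD, n = 4 each). No regulator was called between the genotypes at 0, 20, 30 or 40 h. Of the albumin family, Afm, the gene of the vitamin E carrier afamin, fell in Cre plus livers at 40 h by 0.88 (SE 0.17, adjusted p = 0.00157). Afm also fell in Cre minus livers, by 0.64 at 20 h (SE 0.17, adjusted p = 0.0246) and by 0.88 at 30 h (SE 0.17, adjusted p = 0.00604). It was lower in Cre plus than in Cre minus livers at 40 h, with a difference of -0.59 (SE 0.17, adjusted p = 0.0327).

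The pair of Igf2 probe sets gave different pictures of level but no called change. Igf2 98623_g_at had log2 values of 7.74, 7.62, 7.61, 7.84 and 7.73 in Cre plus livers at 40 h, against 7.68, 7.45, 7.76 and 7.76 at 0 h. Cre minus livers had 7.73, 7.34, 7.67 and 7.86 at 40 h, against 7.63, 7.76, 7.62 and 7.73 at 0 h. The groups overlapped throughout. Over the 13 comparisons its differences lay between -0.07 and 0.07, with interval bounds from -0.31 to 0.28, at most 1.24-fold. Batch moved it: the mean was 7.57 in PHX3 and 7.79 in PHX2, a difference of -0.23 (SE 0.04, adjusted p = 0.000466), in a comparison where 27.0% of probe sets were called.

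Igf2 98622_at, near background, had log2 values of 4.70, 5.22, 4.55, 4.77 and 4.44 in Cre plus livers at 40 h, against 4.26, 4.44, 4.40 and 4.55 at 0 h. Cre minus livers had 4.83, 5.13, 4.69 and 4.57 at 40 h, against 4.46, 4.27, 4.32 and 4.59 at 0 h. In both genotypes the higher livers at 40 h exceeded the 0 h range and the lowest fell within it. The difference at 40 h was 0.32 in Cre plus livers (unadjusted p = 0.0246, adjusted p = 0.14) and 0.39 in Cre minus livers (unadjusted p = 0.0107, adjusted p = 0.125). The genotype differences ran from -0.07 to 0.13.

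Closest in pattern over the 32 arrays to Igf2 98622_at were Tulp1 (r = 0.88), a photoreceptor protein, Cacna1a (0.88), a neuronal calcium channel subunit, and Syt11 (0.87), a synaptotagmin. Closest to 98623_g_at were E330034G19Rik (0.75), Chga (0.74), the granule protein chromogranin A, and Gm13205 (0.71).

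Of 14 receptors, binding proteins and substrates of the IGF pathway 12 were tested. Among them 1 rose and 1 fell at both 20 h and 40 h in Cre plus livers, where 2 rose and 1 fell at 30 h; 1 fell in Cre minus livers at 20 h and 1 rose at 40 h. Igfals, the acid-labile subunit that stabilises circulating IGF complexes, fell in Cre plus livers at all 3 later times, with differences of -1.10 (adjusted p = 0.0152), -1.51 (adjusted p = 0.00337) and -1.05 (adjusted p = 0.0145). It also fell in Cre minus livers at 20 h, to 8.53 ± 0.37 against 9.54 ± 0.19 at 0 h (SD, n = 4 each, adjusted p = 0.0305). At 40 h Igfals was lower in Cre plus than in Cre minus livers, with a difference of -1.07 (SE 0.27, adjusted p = 0.0167). Igf1, the postnatal liver IGF, rose at 40 h by 0.28 in Cre plus livers (adjusted p = 0.0447) and by 0.33 in Cre minus livers (adjusted p = 0.0411). Igfbp1, an IGF-binding protein of fasting and regeneration, rose in Cre plus livers at 30 h by 2.13 (SE 0.65, adjusted p = 0.0373).

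The probe set annotated to both H19 and Mir675 had log2 values of 7.54, 4.43, 4.42, 4.90 and 4.64 in Cre plus livers at 40 h, against 4.61, 4.41, 4.80 and 4.61 in Cre minus livers. Liver A of the Cre plus group stood alone. The next highest of all 32 livers was Cre plus 20 h D at 5.63, and the median was 4.64, under the arrays' 30th percentiles. The genotype difference at 40 h was 0.56 (95% interval -0.22 to 1.34, adjusted p = 0.504) with liver A and -0.08 (adjusted p = 0.832) without it, a fit chosen after seeing the data. In Cre plus liver A at 40 h, Igf2 was 4.70 by 98622_at and 7.74 by 98623_g_at, within the range of the other 4 livers of that group.

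Of 22 other imprinted genes 14 were tested, and in Cre plus liver A at 40 h 3 of them (Dlk1, Gnas and Dcn) lay above and 2 (Slc38a4 and Ascl2) below the other 4 livers of the group, with differences from their mean between -0.62 and 0.33. None of the 14 was called between the genotypes at 40 h, and 1 of them was called in a time comparison of either genotype. That was the tetraspanin Cd81, which fell by 0.34 in Cre plus livers at 20 h (SE 0.11, adjusted p = 0.044).

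Among 17 further fetal and oncofetal genes 10 were tested, and most did not pass. At 20 h in Cre minus livers 2 rose, Fabp7, a fatty acid binding protein, by 1.02 (SE 0.23, adjusted p = 0.00826) and Aldoa, the aldolase of fetal liver and muscle, by 0.89 (SE 0.27, adjusted p = 0.0442). The median difference over the 10 was 0.01. Fabp7 averaged 5.31 ± 0.10 in Cre plus livers at 20 h and 6.89 ± 0.74 in Cre minus livers at 20 h (SD, n = 4 each). The genotype difference was -1.59 (SE 0.23, adjusted p = 0.000664), the 1 call of this list between the genotypes. Aldoa rose in Cre plus livers at 40 h by 0.93 (SE 0.26, adjusted p = 0.0236), and it averaged 10.17 ± 0.33 (n = 5) against 9.24 ± 0.12 at 0 h (n = 4).

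Receptors and relatives of osteopontin were measured although Spp1 was not: 7 of 14 listed genes were tested. The integrin subunits Itgb5 and Itga5 fell in Cre plus livers. Itgb5 differed by -0.61 at 20 h (adjusted p = 0.00463) and -0.38 at 40 h (adjusted p = 0.0462), and Itga5 by -0.36 (adjusted p = 0.0139) and -0.31 (adjusted p = 0.0256). The integrin subunit Itgav rose in Cre minus livers at 20 h by 0.43 (adjusted p = 0.0217). None was called between the genotypes at 40 h.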

How the data were processed

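Total liver RNA was hybridised as biotin-labelled cRNA. Log2 values were deposited, and the submitters' processing notes name RMA. The sources used here do not state its version or whether the batches were normalised together. The base 2 was taken from the range, 2.30 to 14.12. Names came from the platform's annotation table: 10833 had 1 gene, 396 several, 1193 were unnamed here and 66 were controls. Sequences and motif shares are from RefSeq GRCm38.p6.

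A probe set was tested (9249) when 3 or more arrays had it above their 30th percentile. limma 3.58.1 in R 4.3.3 (lmFit, eBayes, 2-sided) fitted 8 groups and batch over 32 arrays, checked on simulated data. Adjusted p is Benjamini-Hochberg within a comparison, called under 0.05. Comparisons with 0 h share those livers. Named were all member probe sets, the 3 most correlated genes of each, and up to 4 genes of each list by size of difference, a gene with several probe sets being read from the one of highest mean. Members and lists were chosen with earlier results of these data known; the control probe sets were chosen after seeing the data. Replicate letters were shared by groups but did not pair livers: the correlation of deviations over 15 same-letter pairs was -0.42 to 0.33, median -0.08, with 4 over 0.1. Alternatives were other filters, batches, normalisations, array weights, groups fitted alone, a replicate block and leaving out livers. The number of arrays limits precision.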

Additional observations from a re-analysis of the deposited data

Results flagged for a closer look

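Of 56 combinations of a probe set and a group that were large enough to check, 3 held a liver far from the others by Dixon's criterion; chance alone marks about 1 in 20 groups. The H19 and Mir675 probe set read 7.54 in Cre plus liver A at 40 h, with the other 4 livers of the group between 4.42 and 4.90. Igf2 98622_at read 4.16 in Cre plus liver B at 20 h, with the other 3 between 4.59 and 4.63. Krt19 92550_at read 4.78 in Cre minus liver D at 30 h, with the other 3 between 4.51 and 4.55.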

How the results depend on the processing

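Of 271 recomputed counts of member calls, 247 equalled the reported count and 24 did not; no called difference changed sign. The 4 genotype counts stayed at 0 under all alternatives run. At 20 h in Cre plus livers the count became 1 (Cd24a) under the stricter filter, in PHX3 alone, with array weights, with the compared groups alone and without the 3 least correlated arrays (chosen after seeing the data), and 0 to 1 leaving out 1 liver. At 30 h in Cre plus livers it became 1 (Krt19) with arrays centred, quantile normalised or in the compared groups alone, and 2 (Afp, Krt19) with array weights. At 40 h in Cre plus livers it became 0 in PHX2 alone, PHX3 alone, the compared groups alone and under the stricter filter, which left Krt19 untested, and 1 to 2 leaving out 1 liver (2 without liver C). At 20 h in Cre minus livers it became 0 in PHX2 alone and PHX3 alone, 2 (Cd24a, Krt19) with array weights, and 0 to 1 leaving out 1 liver. With array weights it became 2 (Krt19, Igf2) at 40 h in Cre minus livers and 1 (Afp) in the interaction at 30 h. Weights also multiplied the calls over all 9249 probe sets: 2662 against 839 without weights at 20 h and 3592 against 915 at 30 h in Cre plus livers, 2095 against 682 at 20 h and 1965 against 441 at 40 h in Cre minus livers, and 1587 against 1 in the interaction. Within 1 batch fewer arrays were fitted; otherwise the cause was not tested. With the replicate block Cd24a at 20 h in Cre minus livers was 0.67 (adjusted p = 0.0252) and Krt19 at 40 h in Cre plus livers 0.59 (adjusted p = 0.0213), and no call changed. Signals near background limit Krt19 and Igf2 98622_at, and the low signals of both Afp probe sets limit Afp.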
